A study of Mus musculus with 40 samples.

Results

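The Rab genes encode small GTPases of membrane traffic. They were taken here as every gene whose symbol is Rab followed by a number and at most 1 letter from a to d, which gave 58 genes of the 32531 in each library. The family was chosen because Rab10 had been seen to be higher in the caudate putamen of defeated mice, so the caudate putamen values of defeated against control libraries are given as a description, with no test. Everywhere else the genes were taken by their symbol, but the members and the lists were chosen with earlier results of these data known.

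A Rab protein sits on a particular membrane when it carries GTP and is drawn back into the cytosol when it carries GDP. Exchange factors load GTP, GTPase-activating proteins trigger its hydrolysis, escort proteins and prenyl transferases attach the lipid anchor, GDP dissociation inhibitors keep the inactive form soluble, and effectors bound to the active form move, tether or fuse the vesicle. In astrocytes these routes carry transporters and adhesion molecules to the fine processes, return internalised cargo and feed the lysosome, while in neurons the Rab3 proteins are abundant on synaptic vesicles.

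The libraries hold ribosome-bound RNA of astrocytes, purified by translating ribosome affinity purification (TRAP) from Tg(Aldh1l1-EGFP/Rpl10a)JD130Htz mice, in which the Aldh1l1 promoter drives a fluorescently tagged ribosomal protein. Every group, controls included, carried this transgene. Stressed and resilient mice had been exposed to attack by a CD1 aggressor in daily bouts of 10 minutes, 10 days in a row, with a divider between them at other times. Stressed mice then had a social interaction index below 1 and resilient mice an index above 1, while control mice were housed in groups in the same room and were not defeated. Tissue was taken 2 days after the last defeat, and each library pooled 2 mice, or 4 to 6 mice for the nucleus accumbens. Stressed, resilient and control libraries numbered 5, 4 and 3 in prefrontal cortex, 5, 3 and 3 in hippocampus, 4, 3 and 3 in nucleus accumbens, and 3, 2 and 2 in caudate putamen. Defeated libraries are the stressed and the resilient ones together. The age and the sex of the mice were not given in the sources used here.

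Total counts were between 21341208 and 33008074 per library, with a median of 25603945, so counting error was small beside the spread between pools for all but the lowest Rab genes. All 14 astrocyte markers were detected in every library, and Aldh1l1 itself lay between 305.9 and 774.3 CPM (counts scaled to a common library size). Neuronal transcripts were present as well. In 5 stressed libraries, prefrontal cortex 4 and 5, hippocampus 2 and 3 and nucleus accumbens 4, long genes were high relative to short ones: the Spearman correlation across genes between exon length and the log2 ratio to the control libraries was 0.458, 0.404, 0.444, 0.507 and 0.395 there, against at most 0.31 in the other libraries. These 5 libraries also had the highest summed level of 12 neuron markers in their regions, at 6352, 5984, 6083, 5400 and 3233 CPM. Results that rest on them are given with and without them.

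Of the 58 genes, 55 passed the filter on low counts for prefrontal cortex and hippocampus, and 53 did so for nucleus accumbens and caudate putamen. Rab17, Rab25 and Rab44 were the lowest, and Rab25, a recycling Rab of epithelia, had 0 to 3 counts per library. Levels are compared between genes per kilobase of exon. On that scale Rab2a, which acts between the endoplasmic reticulum and the Golgi apparatus, was highest with 285.4 ± 42.8 CPM per kb (SD over 40 libraries). The late endosomal Rab7 had 209.8 ± 20.02 CPM per kb and Rab1b, needed for transport out of the endoplasmic reticulum, had 206.9 ± 29.7 CPM per kb. These 2 did not differ beyond their spread. Rab31, an endosome and trans-Golgi Rab close to Rab22a, had 157.1 ± 37.2 CPM per kb, Rab3a 128.3 ± 41.9 CPM per kb and the Golgi Rab6a 118.9 ± 25.1 CPM per kb. Rab1, Rab9, Rab10 and Rab11a followed, with mean levels between 80.21 and 106.3 CPM per kb. Below Rab2a each neighbour in this order overlapped the next in its spread.

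All Rab proteins share the guanine nucleotide fold, and its phosphate-binding loop shows how close the members are in sequence. A stretch of codons matching that loop was found in the longest reading frame of 52 of the 58 genes. The 6 sequences that follow are of genes on which the results turn, read from the GENCODE vM21 transcripts, with the 24 bases that encode the loop in capitals and 6 bases on either side.
Rab10: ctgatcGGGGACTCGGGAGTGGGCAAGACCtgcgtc
Rab8a: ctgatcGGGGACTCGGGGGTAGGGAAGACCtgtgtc
Rab31: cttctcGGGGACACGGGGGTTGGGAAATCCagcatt
Rab29: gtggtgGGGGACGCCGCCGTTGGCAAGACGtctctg
Rab3a: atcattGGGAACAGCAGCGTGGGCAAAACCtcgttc
Rab3c: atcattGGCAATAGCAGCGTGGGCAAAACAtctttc
Rab10 and Rab8a, which both deliver cargo from the Golgi apparatus and recycling endosomes to the cell surface, shared 21 of the 24 bases. Rab3a and Rab3c also shared 21, Rab10 and Rab31 shared 18, and Rab10 and Rab3a shared 17. Reads were assigned over whole transcripts, where the members differ far more: only 6 of the 58 genes shared any 50-base window with another gene of the family.

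The comparisons in prefrontal cortex asked whether astrocytes of susceptible mice differed from those of resilient and undefeated mice, and there most called Rab genes were lower in stressed libraries. In stressed against control libraries 29 of the 55 tested genes passed an adjusted p of 0.05, of which 26 fell and 3 rose (edgeR quasi-likelihood test, Benjamini-Hochberg over all genes). The fallen genes were 47.3% of those tested, against 11.7% of all genes called lower, and the risen ones 5.45%, against 16.4% of all genes called higher. Stressed against resilient libraries gave 26 calls, 23 lower and 3 higher, where 10.7% of all genes were called lower and 14.3% higher. The median log2 fold change of the tested Rab genes was -0.28 against control and -0.20 against resilient, while that of all genes was 0.04 and 0.03. The calls of both comparisons shared 25 genes, but the stressed libraries enter both, so the second is no independent repeat of the first. In resilient against control libraries edgeR called 0 Rab genes, 0 had an unadjusted p under 0.05, DESeq2 called 0, and 0% of all genes were called in either direction. The smallest p values there belonged to Rab5c, with a log2 fold change of -0.43, and to Rab35, with -0.20, both at an adjusted p of 1.

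The sum over all 58 genes was 6717 to 6895 CPM in stressed libraries, 7740 to 8291 CPM in resilient libraries and 7821 to 8561 CPM in control libraries. The stressed libraries lay below every library of the other 2 groups, and the resilient and control ranges overlapped. Because CPM are shares of a library, a lower value means a smaller share of the ribosome-bound RNA recovered. In pooled tissue, fewer cells of a type and less RNA per cell cannot be told apart.

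**Figure D1:**
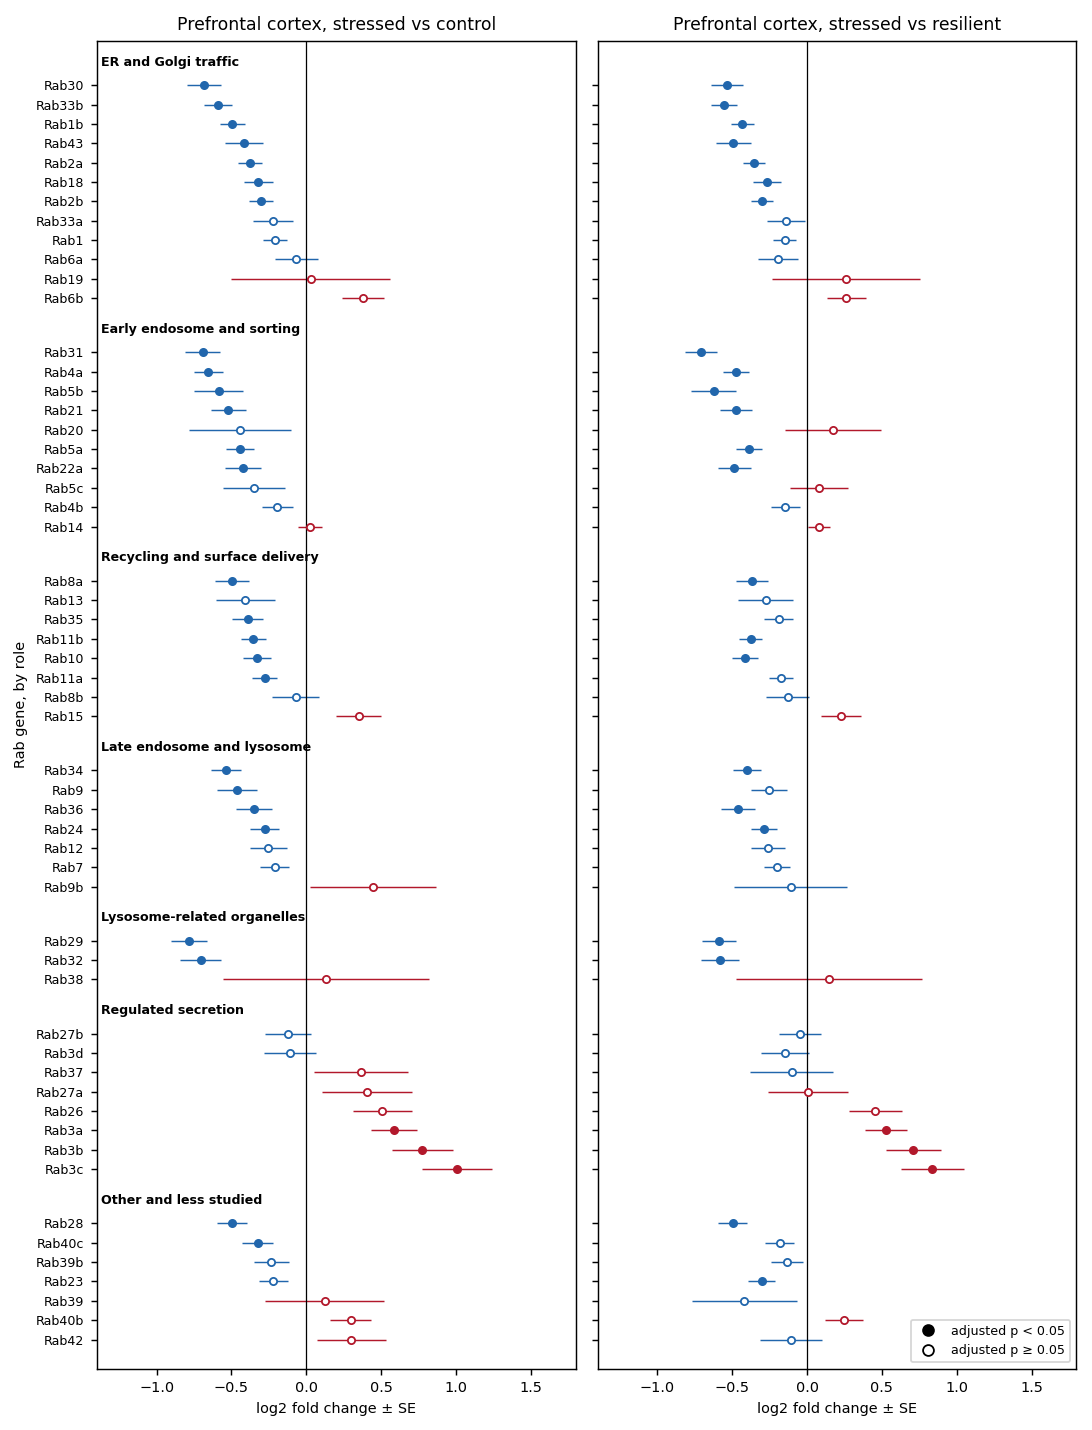
Log2 fold change with its standard error (horizontal axis) of the 55 tested Rab genes in the prefrontal cortex, stressed against control on the left and stressed against resilient on the right, grouped by role; filled points have an adjusted p under 0.05. Nearly all filled points lie left of 0, and the 3 to the right are Rab3a, Rab3b and Rab3c.

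Among the 12 tested genes of endoplasmic reticulum and Golgi traffic, 7 fell against control and 0 rose, with a median log2 fold change of -0.31. Rab1b had 397.6, 423.4, 371.8, 381.3 and 417.4 CPM in the stressed libraries, 541.4, 537.9, 509.8 and 560.3 CPM in the resilient libraries and 588.6, 550.0 and 544.7 CPM in the control libraries. All 5 stressed values lay below all others, and the log2 fold change was -0.50 ± 0.08 (SE) against control, with an adjusted p of 0.00203, and -0.43 ± 0.08 against resilient, with an adjusted p of 0.00291. Rab30 and Rab33b are Golgi Rabs, and Rab33b also binds the autophagy factor Atg16l1. Rab33b had 85.09, 82.06, 92.41, 90.55 and 94.40 CPM in stressed libraries, 126.9, 144.1, 126.5 and 124.2 CPM in resilient libraries and 148.3, 127.6 and 124.6 CPM in control libraries. The groups did not overlap, and its log2 fold change was -0.59 ± 0.09 against control (adjusted p = 0.0016). Rab30 had 35.10 to 45.09 CPM in stressed libraries, 52.79 to 68.75 CPM in resilient libraries and 60.20 to 70.13 CPM in control libraries, again without overlap, and a log2 fold change of -0.68 ± 0.11 against control (adjusted p = 0.00199). Rab2a, the most abundant member, fell to 516.6 to 553.2 CPM in stressed libraries, against 649.1 to 728.8 CPM in control libraries. The near copies did not all share the call. Rab1 had a log2 fold change of -0.21 with an adjusted p of 0.0722, Rab6a of -0.07 with an adjusted p of 0.754, and Rab6b, a form known from neurons, of 0.38 with an adjusted p of 0.0623.

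Of the 10 tested genes of the early endosome and sorting, 6 fell and 0 rose against control, and the median log2 fold change was -0.44. Rab31 had 464.9, 444.9, 448.9, 419.3 and 418.5 CPM in stressed libraries, 709.7, 835.1, 716.9 and 610.8 CPM in resilient libraries and 755.9, 775.4 and 597.3 CPM in control libraries. The stressed libraries were close together and well below the others. The means were 439.3 ± 20.1 CPM in stressed (SD, n = 5), 718.1 ± 91.8 CPM in resilient (n = 4) and 709.5 ± 97.7 CPM in control libraries (n = 3), and the log2 fold changes were -0.69 ± 0.12 against control (adjusted p = 0.00195) and -0.71 ± 0.11 against resilient (adjusted p = 0.00135). Rab4a, which drives fast recycling from early endosomes, had 97.35 to 121.7 CPM in stressed libraries, 144.6 to 163.9 CPM in resilient libraries and 165.6 to 183.6 CPM in control libraries. Its log2 fold change against control was -0.66 ± 0.10 with an adjusted p of 0.00107, the smallest of the family in that comparison. Rab5a and Rab5b, which organise fusion of early endosomes, fell by 0.44 and 0.58 on the log2 scale against control. Rab5b was less even than the others: 40.36, 58.67, 56.29, 70.45 and 58.90 CPM in stressed libraries stood against 93.52, 95.82 and 66.59 CPM in control libraries, so 1 stressed library exceeded the lowest control. The third form, Rab5c, did not pass, with a log2 fold change of -0.35 and an adjusted p of 0.218. Rab14 stood at 0.03 and Rab4b at -0.19 with adjusted p of 0.819 and 0.176.

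Of the 8 tested genes of recycling and delivery to the surface, 5 fell and 0 rose against control, with a median of -0.34. Rab10, the gene for which the family was chosen, lies on chromosome 12 at chr12:3247428-3309969 on the minus strand (GRCm38) and serves the delivery of glucose transporters and other cargo to the surface. In the prefrontal cortex it had 226.2, 241.4, 247.0, 244.1 and 211.2 CPM in stressed libraries, 297.5, 343.0, 319.1 and 289.9 CPM in resilient libraries and 317.5, 291.1 and 271.4 CPM in control libraries. All stressed values lay below all others, and the resilient and control values overlapped. The log2 fold change was -0.33 ± 0.09 against control (adjusted p = 0.0235) and -0.42 ± 0.09 against resilient (adjusted p = 0.00599). The call against control was lost without control library 1, where the adjusted p was 0.132, and without control library 2, where it was 0.0673. Rab8a, its close relative, fell by 0.50 ± 0.11 on the log2 scale against control (adjusted p = 0.00839), while Rab8b had -0.07 with an adjusted p of 0.754. Rab11b and Rab11a, of the slow recycling route, fell by 0.35 and 0.28, and Rab35 by 0.39. Rab15, a form enriched in neurons, had 0.35 with an adjusted p of 0.0965.

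Of the 7 tested genes of late endosomes, lysosomes and autophagy, 4 fell and 0 rose against control, with a median of -0.28. Rab34, which positions lysosomes, had 118.2 to 151.8 CPM in stressed libraries, 168.0 to 190.4 CPM in resilient libraries and 188.1 to 214.3 CPM in control libraries. The stressed libraries did not overlap the others, and the log2 fold change against control was -0.54 ± 0.10 (adjusted p = 0.00331). Rab9, which returns receptors from late endosomes to the Golgi apparatus, fell by 0.46 against control, and this change was uneven, at -0.32 without stressed libraries 4 and 5 and -0.74 with these as the only stressed ones. Rab7, by level the first of this role, had -0.21 with an adjusted p of 0.109. The steepest falls were in genes of lysosome-related organelles, where 2 of 3 tested fell. Rab29, a regulator of the kinase Lrrk2, had 47.67, 40.20, 41.59, 33.57 and 34.83 CPM in stressed libraries, 67.01, 56.97, 56.29 and 57.67 CPM in resilient libraries and 68.66, 73.52 and 62.18 CPM in control libraries. The groups did not overlap, with log2 fold changes of -0.78 ± 0.12 against control (adjusted p = 0.00136) and -0.59 ± 0.11 against resilient (adjusted p = 0.00404). Rab32, which also has a role at mitochondria, was low throughout, with 7.046 to 9.818 CPM in stressed libraries, 11.17 to 13.70 CPM in resilient libraries and 12.52 to 15.06 CPM in control libraries. Its log2 fold change was -0.71 ± 0.14 against control (adjusted p = 0.00398). Of the 7 tested genes with other or less studied roles, 2 fell, Rab28 by 0.50 and Rab40c by 0.32.

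**Figure D2:**
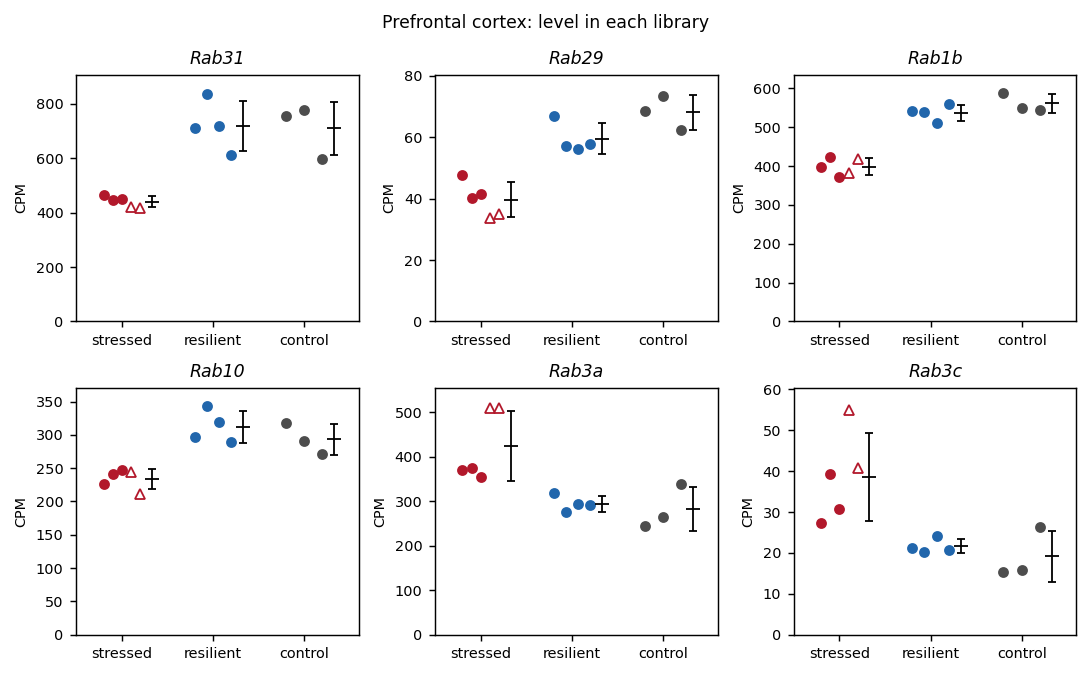
CPM (vertical axis) of Rab31, Rab29, Rab1b, Rab10, Rab3a and Rab3c in each prefrontal cortex library by group, with mean and SD beside the points; open triangles are stressed libraries 4 and 5. For Rab31, Rab29, Rab1b and Rab10 all 5 stressed libraries lie below all others, and for Rab3a and Rab3c the open triangles are the highest points.

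The genes of regulated secretion went the other way: 3 of the 8 tested rose against control and 0 fell, with a median log2 fold change of 0.46. All 3 were Rab3 genes, whose proteins act in the release of synaptic and other secretory vesicles. Rab3a had 371.1, 374.4, 355.0, 509.6 and 509.6 CPM in stressed libraries, 319.4, 275.5, 292.9 and 290.5 CPM in resilient libraries and 243.9, 264.2 and 338.4 CPM in control libraries. Rab3c had 27.27, 39.36, 30.80, 54.87 and 40.73 CPM in stressed libraries, 21.33, 20.27, 24.09 and 20.74 CPM in resilient libraries and 15.40, 15.81 and 26.38 CPM in control libraries. Rab3b had 38.63 to 59.17 CPM in stressed libraries, 26.72 to 35.56 CPM in resilient libraries and 22.57 to 36.89 CPM in control libraries. The stressed libraries lay above the others in each case, narrowly so against control 3. The log2 fold changes against control were 0.59 ± 0.15 for Rab3a (adjusted p = 0.0153), 0.78 ± 0.20 for Rab3b (adjusted p = 0.0153) and 1.01 ± 0.23 for Rab3c (adjusted p = 0.00879). The fourth form, Rab3d, had -0.11 with an adjusted p of 0.666. Rab26, of synaptic vesicle turnover, had 0.51 with an adjusted p of 0.0697, and Rab27b had -0.12 with an adjusted p of 0.566.

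Neuronal transcripts moved with the Rab3 genes. The 12 neuron markers summed to 3477 to 6352 CPM in stressed libraries, 2791 to 3182 CPM in resilient libraries and 2407 to 3226 CPM in control libraries, and 8 of the 12 were called higher against control and 0 lower. The 8 excitatory neuron markers summed to 1254 to 1878 CPM, 886.4 to 1124 CPM and 790.6 to 1079 CPM in the stressed, resilient and control libraries, with 5 called higher. The 8 inhibitory neuron markers summed to 243.4 to 567.1 CPM in stressed, 127.8 to 153.9 CPM in resilient and 106.6 to 160.9 CPM in control libraries, with 5 called higher, so these groups did not overlap. Endothelial markers summed to 23.59 to 56.64 CPM, 12.20 to 15.48 CPM and 10.98 to 16.35 CPM in the same order, with 3 of 7 called higher. Mural and meningeal markers were highest in stressed libraries 1 to 3, at 61.08 to 72.88 CPM and 68.21 to 118.9 CPM, against 20.20 to 28.04 CPM and 19.56 to 32.24 CPM in control libraries. Of 10 microglia markers 8 were called higher, with sums of 37.68 to 95.51 CPM in stressed, 28.56 to 34.32 CPM in resilient and 21.59 to 31.70 CPM in control libraries. Astrocyte markers summed to 27000 to 41150 CPM, 29670 to 42200 CPM and 34770 to 36170 CPM in those groups, with 6 of 14 called higher and 0 lower. The part of these other cells in the Rab results was not tested.

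Leaving out stressed libraries 4 and 5 separated the members. The fall of Rab31 was -0.68 without them and -0.74 with them as the only stressed libraries, and that of Rab10 was -0.33 and -0.35. Rab3a was 0.35 without them (adjusted p = 0.0128) and 0.87 with them alone. Rab3b was 0.51 and 1.10, and Rab3c was 0.73 and 1.34. Without them 32 Rab genes were called in all. Stressed libraries 4 and 5 also differ from the other stressed libraries in the form of the file name, described next. Most control and resilient libraries have the form of libraries 4 and 5, so this split cannot be told apart from one by naming form.

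The files carry names of 2 forms, and what the form stands for is not given in the sources used here. Stressed libraries 4 and 5, control libraries 1 and 2 and resilient libraries 1 to 3 have the long form. In the short form control 3 is the only control and resilient 4 the only resilient library. Each is assumed to vary like stressed libraries 1 to 3, which alone supply the spread there. Within the long form Rab31 had a log2 fold change of -0.85 against control (adjusted p = 1.77e-06), and within the short form -0.42. Rab29 had -1.03 and -0.55, and Rab1b had -0.49 and -0.47. Rab10 had -0.40 within the long form (adjusted p = 0.00276) and -0.21 within the short form. Rab3a had 1.03 within the long form and 0.10 within the short form, Rab3b 1.36 and 0.11, and Rab3c 1.64 and 0.28. All short form values rest on that lone control, so a call made or missed there does not test a gene. Against the lone resilient library 4 of the short form the log2 fold changes of Rab3a, Rab3b and Rab3c were 0.30, 0.55 and 0.61, which likewise does not test them. The number of Rab genes called against control was 38 within the long form. It was 10 without control library 1 and 17 without control library 2. Without control library 1 the adjusted p was 0.093 for Rab3a, 0.0911 for Rab3b, 0.0589 for Rab3c and 0.103 for Rab5b. Without control library 2 it was 0.0681, 0.074, 0.0492 and 0.0945 in that order. Of the 24 named genes called against control, Rab1b, Rab4a, Rab8a, Rab28, Rab29, Rab30, Rab31, Rab33b and Rab34 passed in all 21 alternative fits. Of the 21 named genes called against resilient, 11 did, Rab10 and Rab3c among them. The fit within the short form is among these alternatives, and a pass in it does not test a gene either. Of the named genes, Rab24 lost its call against control most often.

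Exon length, which separated some libraries, was set beside the changes within the family. Across the 55 tested Rab genes the Spearman correlation of exon length with the log2 fold change was 0.05 in stressed against control and -0.14 in stressed against resilient. Across 14590 genes it was 0.29 and 0.25 in the same comparisons, and these genes share the same libraries. The median exon length was 3524 bases over the tested Rab genes and 4406 bases over the 14590 genes. A correlation within the family does not bear on a shift of the family as a whole, and the part of length in that shift was not tested.

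The promoter windows of the genes that moved are given for Rab31 and Rab3c, which went in opposite directions in the prefrontal cortex, and for Rab10. They are RefSeq windows on GRCm38.p6, 250 bases before to 50 after the start, read on the minus strand at chr17:65772703-65773002, chr13:110280157-110280456 and chr12:3309920-3310219. Capitals mark the GC box GGGCGG and the CCAAT box, each on either strand.
Rab31: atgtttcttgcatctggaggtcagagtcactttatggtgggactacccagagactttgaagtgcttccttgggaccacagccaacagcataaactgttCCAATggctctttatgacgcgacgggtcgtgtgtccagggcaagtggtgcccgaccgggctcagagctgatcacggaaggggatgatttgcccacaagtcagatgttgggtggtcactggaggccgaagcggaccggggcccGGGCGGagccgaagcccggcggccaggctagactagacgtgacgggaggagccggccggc
Rab3c: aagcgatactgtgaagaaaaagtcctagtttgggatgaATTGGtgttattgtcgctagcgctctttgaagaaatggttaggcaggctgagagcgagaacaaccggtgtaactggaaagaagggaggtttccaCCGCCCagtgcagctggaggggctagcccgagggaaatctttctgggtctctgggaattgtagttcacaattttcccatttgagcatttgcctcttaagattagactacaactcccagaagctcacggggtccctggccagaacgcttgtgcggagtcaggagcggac
Rab10: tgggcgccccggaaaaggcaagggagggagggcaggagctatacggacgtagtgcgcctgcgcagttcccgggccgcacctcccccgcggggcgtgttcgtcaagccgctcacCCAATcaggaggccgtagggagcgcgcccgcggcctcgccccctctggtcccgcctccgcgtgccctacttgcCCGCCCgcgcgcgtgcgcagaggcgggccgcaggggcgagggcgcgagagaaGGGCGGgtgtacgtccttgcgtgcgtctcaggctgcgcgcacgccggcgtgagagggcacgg
All 3 windows held both motifs, so these letters did not separate the gene that rose from those lower in stressed libraries. A window was found for 48 of the 58 genes. GGGCGG was in 75.0% of them against 38.2% of all 27025 genes with a window, and CCAAT in 54.2% against 41.1%, while TATAAA was in 8.33% against 15.7%. The Rab windows were richer in G and C, with a median of 61.7% against 52.7%, and a G and C rich motif is found more often in such sequence. The palindromic glucocorticoid response element, AGAACA and TGTTCT set 3 bases apart, was in 0 of the 48 and in 0.0111% of all genes.

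The lysosomal gene element, the letters GT, CACGTG and AC in a row, which in other genes is bound by Tfeb, was in 3 of the 48 windows, 6.25%, against 0.37% of all genes. It contains CACGTG, which was in 12.5% against 8.09%. These 3 genes, Rab21 and Rab5a of the early endosome and Rab24 of autophagy, were among the 21 of these 48 genes that were lower in stressed against control prefrontal cortex, and Rab24 lost that call in 13 of 21 alternative fits. The element is in capitals within 40 bases at chr10:115315599-115315638 (minus strand), chr13:55321956-55321995 (minus strand) and chr17:53479122-53479161 (plus strand) of GRCm38.p6.
Rab21: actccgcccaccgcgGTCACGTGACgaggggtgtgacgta
Rab24: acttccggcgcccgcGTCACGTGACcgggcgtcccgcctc
Rab5a: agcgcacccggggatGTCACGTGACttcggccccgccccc
A match is a description of the letters and not a bound site. Rab24 shares 49.6% of its 50-base windows with Prelid1 on the opposite strand, and since it is not stated whether counting used the strand, its count is uncertain. The same holds for Rab2b, which shares 57.0%, and to a lesser part for Rab20, Rab33b and Rab6a, which share 22.9%, 21.2% and 19.0%, all or mostly on the opposite strand. Rab43 and Rab4b share 74.5% and 58.1% with other annotated genes, all or mostly on the same strand. Their counts are uncertain because annotation and counting mode are not given. In all, 10 of the 58 genes shared over 10% of their windows. Rab10 shares 2.54%.

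Genes that act on Rab proteins were called at rates near or below those of all genes in stressed against control libraries. Of 31 tested exchange factors 9 were called in stressed against control prefrontal cortex, 4 higher and 5 lower, beside the 16.4% of all genes called higher and 11.7% lower. Ccz1, part of the exchange factor for Rab7, fell by 0.57 ± 0.11 on the log2 scale (adjusted p = 0.00308), and Dennd2a and Dennd6a fell by 0.44 and 0.37. Dennd5b and Madd, the exchange factor for Rab3 proteins, rose by 1.12 and 1.84. Of 33 GTPase-activating proteins 8 were called, 5 higher and 3 lower. Tbc1d4, which acts on Rab10 in fat cells, rose by 0.79 ± 0.21 (adjusted p = 0.0166), Tbc1d5 rose by 0.61 ± 0.15 (adjusted p = 0.0133), and Tbc1d20, which acts on Rab1 proteins, fell by 0.64 ± 0.18 (adjusted p = 0.0207). Of 41 effectors 6 rose and 1 fell. Eea1, the Rab5 tether of early endosomes, rose by 0.59 ± 0.13 (adjusted p = 0.00645), Mical3, an effector of exocytosis, rose by 1.65 (adjusted p = 0.0268), and the Rab3 effectors Rph3a and Rims1 rose by 1.27 and 0.85. Rilpl2, an effector of phosphorylated Rab8a and Rab10, fell by 0.56 ± 0.11 (adjusted p = 0.00333). The list of 8 genes for prenylation and GDP dissociation inhibition also held Rabif, which is of neither kind. Rabif was the only gene of that list called, lower by 0.44 ± 0.12 (adjusted p = 0.0146). The kinases and phosphatase gave 0 calls of 3 against control. These counts are no result about the lists, and the genes named are given for their own values.

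Stressed against resilient prefrontal cortex gave 3 exchange factors higher and 7 lower of 31, and 5 activating proteins higher and 4 lower of 33. Of all genes 14.3% were higher and 10.7% lower. The share of exchange factors called lower was above that of all genes, a difference that was not tested. Ccz1 fell by 0.53 (adjusted p = 0.00322), Dennd5a by 0.52 (adjusted p = 0.00929) and Rabif by 0.43 (adjusted p = 0.013), while Dennd5b rose by 1.15 (adjusted p = 0.0111). Among the activating proteins Usp6nl, which acts on Rab5 proteins, fell by 0.64 (adjusted p = 0.00757), Tbc1d20 by 0.70 (adjusted p = 0.0106) and Tbc1d14, a regulator of Rab11 in autophagy, by 0.50 (adjusted p = 0.0142). Of 41 effectors 5 rose and 1 fell. Ppm1h, the phosphatase that reverses Lrrk2 phosphorylation of Rab proteins, rose by 0.41 (adjusted p = 0.0357).

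In the hippocampus edgeR called 0 Rab genes in each of the 3 comparisons, and 0% of all genes were called in each. DESeq2 called 0 Rab genes as well. At an unadjusted p under 0.05 there were 5 of 55 in stressed against control, where 8.33% of all genes had such a p. There were 10 in stressed against resilient, where 17.2% of all genes did, and 2 in resilient against control, where 1.43% did. The first 2 shares are near those of all genes. The median log2 fold change of the 55 genes was -0.11 in stressed against control, -0.22 in stressed against resilient and 0.12 in resilient against control, beside 0.05, 0.06 and -0.02 over all genes. Rab4a had 133.6, 76.78, 69.71, 114.2 and 99.22 CPM in stressed libraries, 140.8, 151.2 and 151.1 CPM in resilient libraries and 153.5, 151.7 and 105.0 CPM in control libraries. Stressed libraries 2 and 3 were the lowest, and the other stressed libraries were still below the resilient ones. Rab8a gave the smallest p against resilient, with a log2 fold change of -0.49 and an adjusted p of 0.268, and Rab24 the smallest against control, with -0.42 and an adjusted p of 0.525. Rab10 had 197.1 to 289.9 CPM in stressed libraries, 300.5 to 313.1 CPM in resilient libraries and 214.5 to 283.4 CPM in control libraries. The stressed and control ranges overlapped almost wholly, while all stressed values were below the resilient ones, at a log2 fold change of -0.35 (adjusted p = 0.282). Without stressed libraries 2 and 3, where neuron markers were high, the median was -0.06 against control and -0.18 against resilient, and 0 genes were called.

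**Figure D3:**
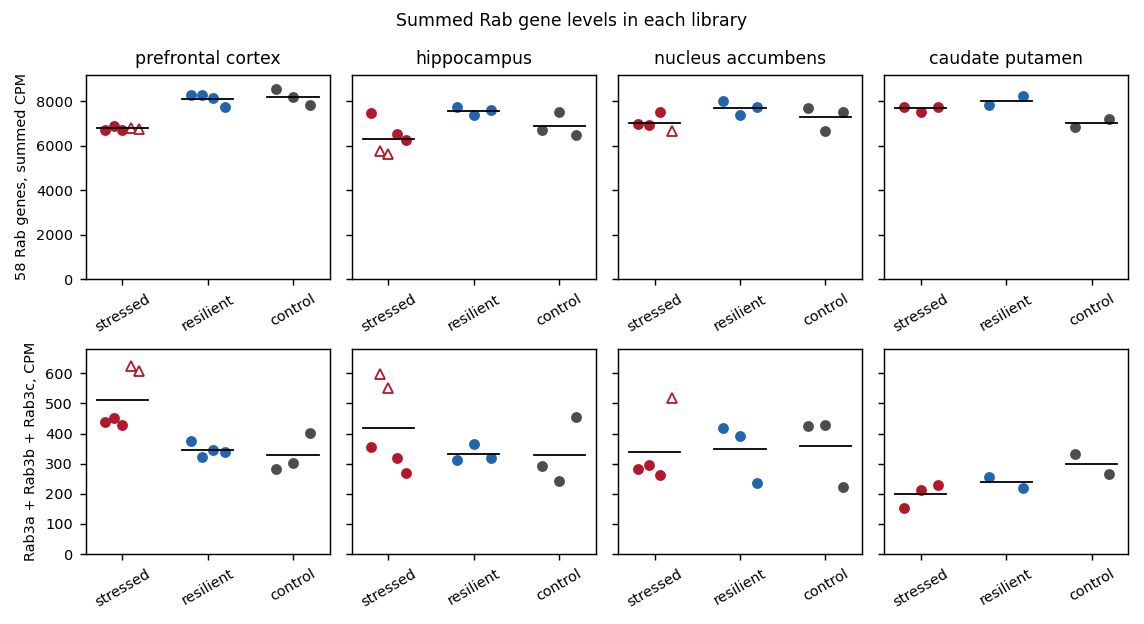
Summed CPM (vertical axes) of all 58 Rab genes in the upper row and of Rab3a, Rab3b and Rab3c in the lower row, in each library of the 4 regions, with a line at each group mean; open triangles are the 5 stressed libraries in which long genes were high. In the prefrontal cortex all stressed libraries are below the others in the upper row, and the open triangles are the highest points of their regions in the lower row.

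The summed Rab3 level followed these libraries in each region that had them. In the hippocampus Rab3a, Rab3b and Rab3c together had 599.4 and 552.3 CPM in stressed libraries 2 and 3 and 269.8 to 354.2 CPM in the other stressed libraries, against 242.3 to 455.3 CPM in control libraries. In the nucleus accumbens the sum was 519.6 CPM in stressed library 4, against 222.1 to 429.6 CPM in control libraries. The sum over all 58 genes in the hippocampus was 5637 to 7464 CPM in stressed, 7367 to 7722 CPM in resilient and 6465 to 7512 CPM in control libraries. The lowest values were those of stressed libraries 2 and 3, and the groups overlapped.

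In the nucleus accumbens edgeR called 0 of 53 Rab genes in each of the 3 comparisons, 0 had an unadjusted p under 0.05, DESeq2 called 0, and 0% of all genes were called. The medians were -0.06 in stressed against control, -0.16 in stressed against resilient and 0.08 in resilient against control. Rab31 had 610.7, 598.8, 716.2 and 508.0 CPM in stressed libraries, 736.9, 669.3 and 811.4 CPM in resilient libraries and 713.3, 511.6 and 813.6 CPM in control libraries, and the groups overlapped. Rab10 had 243.7 to 317.2 CPM in stressed, 305.3 to 342.0 CPM in resilient and 254.0 to 316.7 CPM in control libraries, also with overlap. The smallest unadjusted p values belonged to Rab8b in stressed against resilient, with a log2 fold change of -0.34 and an adjusted p of 0.987, and to Rab2b in resilient against control, with 0.23 and an adjusted p of 1.

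Whether the stress effect differed between regions was tested in a fit of prefrontal cortex, hippocampus and nucleus accumbens. The joint test called 0 Rab genes and 0% of all genes, 0 Rab genes had an unadjusted p under 0.05, and DESeq2 called 0. The smallest adjusted p was 0.932, for Rab4a. For Rab31 the effect in prefrontal cortex minus that in hippocampus was -0.49 ± 0.29 on the log2 scale, and minus that in nucleus accumbens -0.53 ± 0.30. For Rab10 these differences were -0.29 ± 0.19 and -0.32 ± 0.19. The lower levels in stressed prefrontal cortex were therefore not shown to be particular to that region.

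In the caudate putamen, the region from which the family was chosen, Rab10 had 388.1, 377.6 and 398.5 CPM in stressed libraries, 394.3 and 411.9 CPM in resilient libraries and 265.0 and 262.9 CPM in control libraries. All 5 defeated libraries lay above both controls, and stressed and resilient libraries overlapped. Defeated libraries averaged 394.1 ± 12.7 CPM (SD, n = 5) and control libraries 263.9 ± 1.46 CPM (n = 2), a log2 fold change of 0.61. Rab2a had 689.9, 668.5 and 743.2 CPM in stressed, 787.4 and 820.4 CPM in resilient and 544.0 and 563.5 CPM in control libraries, with a log2 fold change of 0.46 in defeated against control. Rab18, a Rab of lipid droplets and the endoplasmic reticulum, had 466.5, 494.5 and 489.9 CPM in stressed, 520.6 and 557.3 CPM in resilient and 352.6 and 369.2 CPM in control libraries. All 3 genes were higher in every defeated library. Rab1 and Rab11a, at log2 fold changes of 0.43 and 0.42, were likewise above both controls in all 5 defeated libraries.

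Of the 8 members of regulated secretion 7 had a negative log2 fold change, the exception being Rab37 at 0.36, and forms known from neurons, Rab15 and Rab6b, were lower. Rab3b had 14.10, 22.25 and 23.28 CPM in stressed libraries, 24.96 and 19.42 CPM in resilient libraries and 36.52 and 29.47 CPM in control libraries. Rab3a had 122.9, 167.5 and 181.3 CPM in stressed, 200.1 and 173.6 CPM in resilient and 258.6 and 203.5 CPM in control libraries. The defeated libraries were all below the controls for both genes, by little for Rab3a. Log2 fold changes in defeated against control were -0.62 for Rab3b, -0.62 for Rab15, -0.58 for Rab26, -0.54 for Rab40b, -0.46 for Rab6b and -0.40 for Rab3a. In all, 13 of 53 genes were higher and 11 lower in every defeated library than in both controls, where 7.75% of all genes were higher and 9.65% lower in that way. The fit that gave these fold changes called 0% of all genes at an adjusted p under 0.05, and no test of the Rab genes is read from it. The median log2 fold change was 0.19 for the genes of endoplasmic reticulum and Golgi traffic and -0.41 for those of regulated secretion, and 0.07 over the 53 genes. Set beside prefrontal cortex, 12 of 53 genes had every stressed library below all controls there and above all controls in caudate putamen, where 3.63% of all genes did, and 4 had the reverse, where 1.69% did. The caudate putamen values had led to the choice of the family, so nothing is read from these shares.

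**Figure D4:**
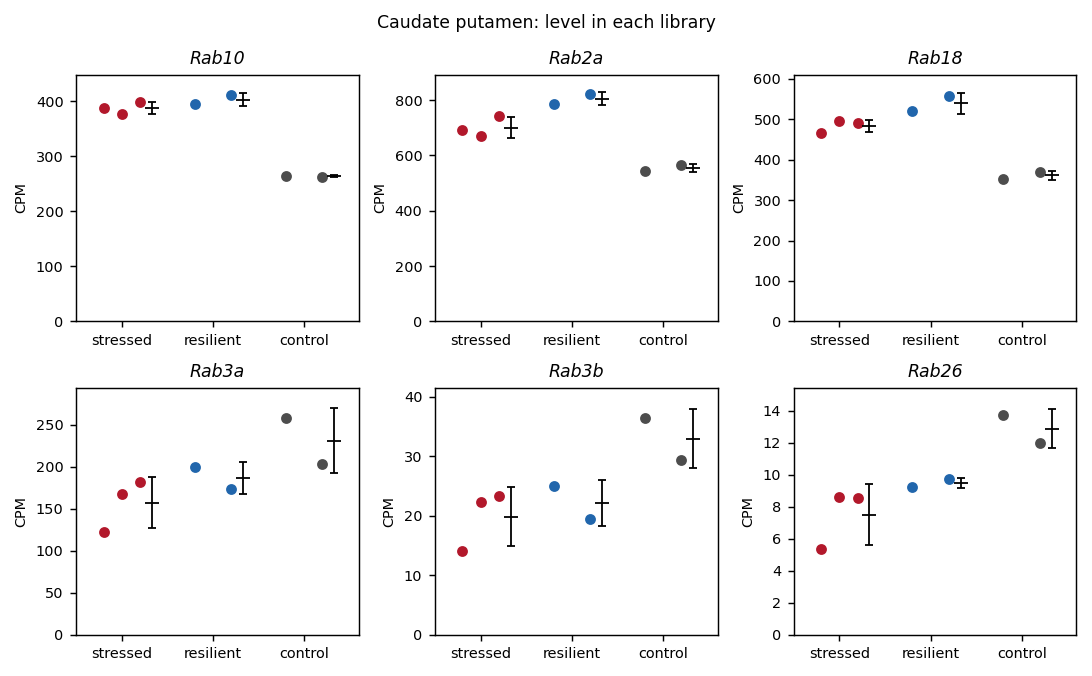
CPM (vertical axis) of Rab10, Rab2a, Rab18, Rab3a, Rab3b and Rab26 in each caudate putamen library by group, with mean and SD beside the points. Rab10, Rab2a and Rab18 are higher and Rab3a, Rab3b and Rab26 lower in all 5 defeated libraries than in the 2 controls.

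Neuronal markers were mixed here. Excitatory neuron markers summed to 173 to 261 CPM in stressed and to 232.7 and 292.2 CPM in resilient libraries. All were below the controls, at 405.6 and 509.8 CPM. Inhibitory neuron markers summed to 169.5 to 484 CPM in stressed, 272.5 and 581.8 CPM in resilient and 309.8 and 360.1 CPM in control libraries, with overlap. The sums of the 2 lists that follow overlapped as well. The 12 neuron markers summed to 718 to 1461 CPM in stressed, 1066 to 1632 CPM in resilient and 1375 to 1762 CPM in control libraries, and the striatal projection neuron markers to 1822 to 2502 CPM, 2177 to 2772 CPM and 2234 to 3229 CPM. Their part in the Rab values was not tested. All 58 genes together had 7532 to 7763 CPM in stressed, 7814 to 8219 CPM in resilient and 6860 to 7214 CPM in control libraries. Between stressed and resilient libraries, a comparison outside the choice of the family, edgeR called 0 Rab genes and 0% of all genes, and DESeq2 called 0. At an unadjusted p under 0.05 there were 2 of 53, where 2.55% of all genes had such a p. They were Rab4a and Rab24, each with a log2 fold change of -0.26 and with adjusted p of 0.939. Rab10 had -0.11.

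The regions differed in their Rab genes without any stress. Over the 11 control libraries 10 of 55 genes were called in a joint test of the 4 regions, 18.2% of those tested, which is close to the 18.8% of all genes called. It is not given in the sources used here whether libraries of different regions came from the same mice. Against the mean of the other regions, 7 Rab genes were higher and 1 lower in prefrontal cortex, where 6% of all genes were higher and 6.72% lower. Rab33a, a Golgi Rab of secretory vesicles found in neurons, had 26.22, 33.41 and 31.62 CPM in prefrontal cortex, against 10.16 to 17.19 CPM in hippocampus, 7.499 to 14.18 CPM in nucleus accumbens and 12.86 to 19.08 CPM in caudate putamen. All 3 prefrontal libraries were above all others, and the log2 difference was 1.18 ± 0.21 (adjusted p = 0.00629). Excitatory neuron markers summed to 790.6 to 1079 CPM in prefrontal control libraries and 502.7 to 966.8 CPM in hippocampal ones. The sums were 133.7 to 360.6 CPM in nucleus accumbens and 405.6 and 509.8 CPM in caudate putamen. Their part in the Rab33a difference was not tested. Rab6a had 590.1, 526.7 and 509.9 CPM in prefrontal cortex, against 311.9 and 312.9 CPM in caudate putamen, with hippocampus and nucleus accumbens between them. It was called higher in prefrontal cortex by 0.54 ± 0.09 (adjusted p = 0.00501) and lower in caudate putamen by 0.52 ± 0.11 (adjusted p = 0.0216). Rab34, Rab5c, Rab30, Rab4a and Rab24 were the other genes higher in prefrontal cortex, by 0.46 to 0.68, and Rab8b was lower there by 0.73 ± 0.19 (adjusted p = 0.033). Rab33a and Rab6a passed in all 16 alternative fits, while Rab5c lost its call in 9.

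In hippocampus 4 Rab genes were higher and 1 lower, where 8.78% of all genes were higher and 4.68% lower. Rab20, a Rab of phagosomes and endosomes, had 3.509, 15.96 and 10.37 CPM in hippocampus, against 1.805 to 2.663 CPM in prefrontal cortex, 0.8054 to 1.5 CPM in nucleus accumbens and 0.5574 to 0.7742 CPM in caudate putamen. The hippocampal libraries varied widely but all exceeded the others, and the log2 difference was 3.02 ± 0.36 (adjusted p = 0.00069). Choroid plexus markers moved with it. Their 6 genes summed to 51.60, 7704 and 6868 CPM in hippocampal control libraries 1, 2 and 3, where Rab20 had the values above, and to 1.696 to 18.74 CPM in the control libraries of the other regions. In the stressed hippocampal libraries the sums were 191.1, 6348, 9462, 55.11 and 10760 CPM beside Rab20 at 2.677, 7.771, 9.051, 1.935 and 7.104 CPM. Their part in the Rab20 difference was not tested. The other 3 higher genes were Rab3d, by 0.71 ± 0.17 (adjusted p = 0.017), and the scarcely detected Rab38 and Rab19. Rab3d had 10.77, 16.58 and 15.71 CPM in hippocampal control libraries 1, 2 and 3, which overlapped the 11.39 to 12.13 CPM in prefrontal cortex. Rab38 had 0.199, 3.697 and 1.822 CPM. Both were lowest in library 1, where choroid plexus markers were lowest, and the part of these markers was not tested. Rab27b, of exosome release, was lower in hippocampus by 1.18 ± 0.28 on the log2 scale (adjusted p = 0.0185). In nucleus accumbens 1 gene was higher and 0 lower, where 1.51% of all genes were higher and 0.66% lower. That gene was Rab8b, with 37.79, 25.67 and 37.27 CPM in nucleus accumbens, against 13.50 to 15.98 CPM in prefrontal cortex, 12.64 to 20.04 CPM in hippocampus and 19.81 and 27.13 CPM in caudate putamen. Its range overlapped that of the caudate putamen. In caudate putamen 0 genes were higher and 2, Rab6a and Rab20, were lower, where 3.41% of all genes were higher and 2.2% lower. The joint count fell to 4 without control library 2 of prefrontal cortex and also without control library 1 of caudate putamen.

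**Figure D5:**
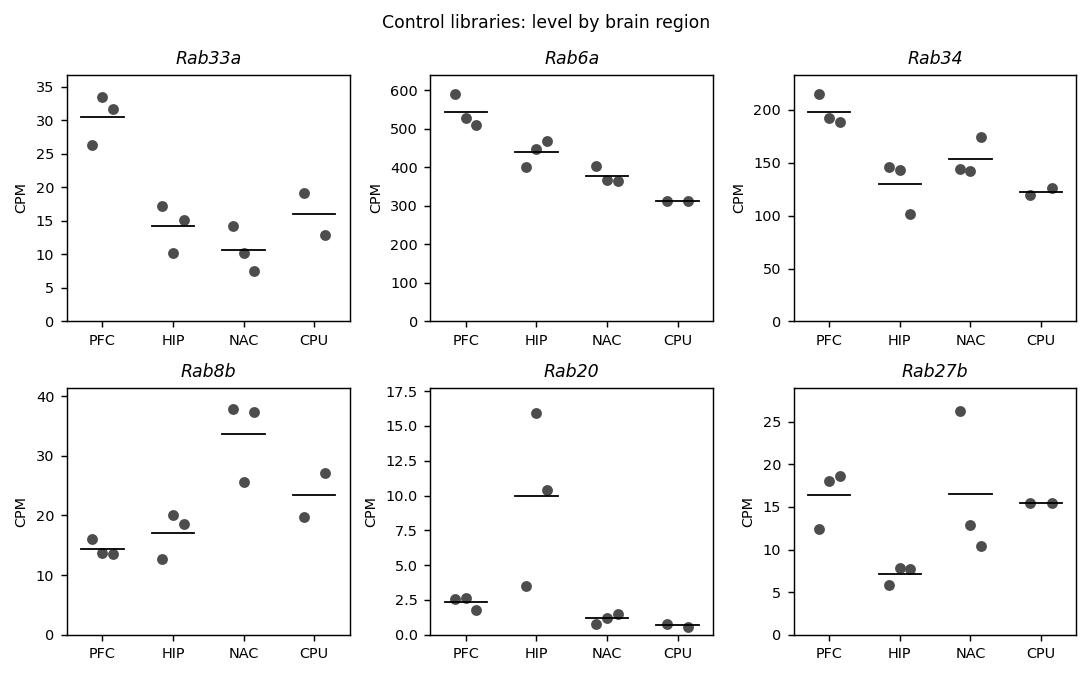
CPM (vertical axis) of Rab33a, Rab6a, Rab34, Rab8b, Rab20 and Rab27b in the control libraries of prefrontal cortex (PFC), hippocampus (HIP), nucleus accumbens (NAC) and caudate putamen (CPU), with a line at each mean. Rab33a and Rab6a are highest in PFC, Rab8b in NAC and Rab20 in HIP, and Rab27b is lowest in HIP.

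The 29 defeated libraries gave 36 of 55 Rab genes in the joint test, where 52.6% of all genes were called. The caudate putamen values that led to the choice of the family enter this count and each difference below. All of them are therefore a description, with no test read from them. Rab33a was again higher in prefrontal cortex, by 1.18 ± 0.12 on the log2 scale, Rab8b was higher in nucleus accumbens by 0.68, and Rab20 was higher in hippocampus by 2.05. These libraries share no sample with the controls. For Rab10 the differences were -0.22 in prefrontal cortex, -0.22 in hippocampus, -0.05 in nucleus accumbens and 0.48 in caudate putamen.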

How the data were processed

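Gene counts were deposited by the authors as 1 table per library: reads had been aligned with STAR 2.0.0e to mm10 and counted with HTSeq (submitters' processing notes). Annotation, HTSeq version, counting mode and strand setting were not given in the sources used here. The line naming no gene, at most 1.87e-05% of a library, and the summary lines were left out. Groups came from the labels. The members and lists were chosen with earlier results of these data known.

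Each region was fitted separately with edgeR 4.0.16 (R 4.3.3): filterByExpr, TMM, robust quasi-likelihood F test, Benjamini-Hochberg over all genes, threshold 0.05. The regions and the region by stress interaction had fits of their own. SE is the absolute log2 fold change over the square root of F. CPM were scaled by TMM over all 40 libraries. DESeq2 1.42.0, RLE scaling, no filter, a replicate block, naming form, and each library left out were the alternatives. The fits were tested on simulated data. Replicate numbers were taken to pair libraries, on the data alone, for resilient against control in nucleus accumbens, where the 3 pairs' deviations correlated at 0.701, 0.350 and 0.502. The values given above for that comparison come from the fit without pairs, and the pairs entered only in the replicate block among the alternatives. In both of these groups library 1 has the long naming form and libraries 2 and 3 the short form. Neuron markers summed to 2458, 2258 and 1026 CPM in the control and 2270, 2251 and 1145 CPM in the resilient libraries. The part of naming form and neuron markers in these correlations was not tested. Replicate pairs differed by more than counting noise, with chi-square over degrees of freedom of 8.25 to 293 in 52 pairs, and p-values measure the spread between pools of mice. Promoters came from RefSeq GRCm38.p6. Genes were named by a rule: Rab10, up to 8 called members per direction and comparison with the largest fold at a mean log2 CPM of at least 1, the 2 smallest p where fewer than 3 were called, up to 4 per region and direction in the control region test, the 10 highest per kb, 5 per direction in caudate putamen, up to 3 called genes per pathway list, and near paralogs. Rab14, Rab17, Rab21, Rab23, Rab25, Rab37, Rab39b, Rab40c and Rab44 were named after their values were seen, as were Madd, Rph3a, Rims1 and Dennd5b against control.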

Additional observations from a re-analysis of the deposited data

Results flagged for a closer look

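Of 152 groups of 4 to 10 libraries tested for a library far from the rest, 10 had one, and chance flags about 1 in 20 groups. Stressed library 4 of the nucleus accumbens, in which long genes and neuron markers were high, accounted for 5 of them. It had 378.3 CPM of Rab3a, against 227.3 CPM in the next highest stressed library, 62.2 CPM of Rab3c against 31.5 CPM, and 391.7 CPM of Rab6a against 352.2 CPM. It was lowest for Rab9, with 116.8 CPM against 174.3 CPM in the next lowest, and for Rab19, with 0 CPM against 0.119 CPM. In the prefrontal cortex, Rab19 had 0.566 CPM in stressed library 1, with the next at 0.322 CPM. Resilient library 1 was highest for Rab29, with 67.0 CPM against 57.7 CPM, and for Rab3b, with 35.6 CPM against 27.3 CPM. Resilient library 2 was highest for Rab33b, with 144.1 CPM against 126.9 CPM, and resilient library 4 lowest for Rab20, with 0.858 CPM against 1.68 CPM.

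For 16 of the 53 Rab genes tested in both regions every stressed library lay on 1 side of all controls in prefrontal cortex and on the other side in caudate putamen, 12 lower and 4 higher in prefrontal cortex. Among all genes 3.63% and 1.69% did so. The stressed minus control log2 fold change of prefrontal cortex less that of caudate putamen was -0.88 for Rab10, -0.88 for Rab21, -0.79 for Rab9, -0.74 for Rab18, -0.72 for Rab28, -0.71 for Rab2a, -0.68 for Rab5a, -0.62 for Rab11a, -0.61 for Rab1, -0.61 for Rab2b, -0.47 for Rab39b and -0.35 for Rab23. It was 1.66 for Rab3c, 1.504 for Rab3b, 1.14 for Rab3a and 0.83 for Rab6b. The difference was not tested, because the caudate putamen values had led to the choice of the family.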

How the results depend on the processing

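In prefrontal cortex, stressed against control, 29 Rab genes were called. With the replicate block 18 were called, 17 lower and 1 higher. The fit within the short naming form, which holds a lone control, is not counted here. Leaving out each library in turn gave 10 to 29. The other 7 settings gave 26 to 38. Against resilient, 26 were called, with 19 to 37 in other settings and 20 to 27 with a library left out. In the control libraries 10 differed between regions, with 5 under the replicate block, 15 by DESeq2 and 4 to 14 with a library left out. For hippocampus, nucleus accumbens, stressed against resilient in caudate putamen, and the interaction, every alternative fitted gave 0. The nucleus accumbens could not be fitted within the long form. Same-numbered libraries correlated in their deviations from the group means at -0.418 to 0.794, 15 of 34 over 0.1, and 14 of 34 matched their own number best. Apart from resilient against control in nucleus accumbens, where the replicate block kept the count at 0, the numbers were not taken to pair libraries. Over 60 results for named genes, 149 of 1185 alternative values lost the threshold and 0 changed sign; for each such loss without a value beside it the cause was not tested. Settings within a naming form hold fewer libraries. Depth limits only the lowest genes, such as Rab19 and Rab25.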
